A study of Mus musculus with 72 samples.

Results

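Atf4, Atf5, Ddit3, Trib3, Asns, Chac1, Sesn2, Ddit4 and Eif4ebp1 belong to the response by which mammalian cells react to missing amino acids. These 9 genes were chosen by their symbols, with earlier results of these data known. Each was found as 1 of the 24883 rows measured by RNA sequencing in the suprachiasmatic nucleus (SCN), the hypothalamic clock. The 72 libraries came from male C57BL/6 mice, 8 weeks old at the start, with 3 mice per group every 4 h from 0 to 20 h, which makes 6 time points in 4 groups. All mice were housed singly for 1 week either in cycles of 12 h light and 12 h darkness (LD) or in constant darkness (DD), and then received for 2 weeks, under the same lighting, a diet depleted of tryptophan (-Trp) or a control diet with matched nitrogen (Ctrl). Diet and light together give 4 groups of 18 libraries, Ctrl LD and Ctrl DD beside -Trp LD and -Trp DD. The question asked of them here is whether the lack of a dietary essential amino acid was accompanied by higher levels of these genes in the SCN.

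When an amino acid runs short, uncharged tRNA activates the kinase GCN2 (Eif2ak4), which phosphorylates the initiation factor eIF2. Most translation slows, while the mRNA of the transcription factor ATF4 is translated more. ATF4 acts with C/EBP partners on a C/EBP-ATF response element in its target genes. Among the targets, Asns encodes asparagine synthetase, Chac1 an enzyme that degrades glutathione, and Trib3 a pseudokinase that restrains ATF4. Ddit3 encodes the transcription factor CHOP, and Atf5 a second ATF that, like Atf4, is controlled at translation. Sesn2, Ddit4 and Eif4ebp1 encode proteins that restrain mTORC1 signalling or the cap-dependent translation it drives. The step at ATF4 itself is translational, so the mRNA level of Atf4 does not measure it, whereas the target genes report it at the mRNA level.

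The element was searched as TGATGNAA on both strands in windows of 250 bases before to 50 bases after the start of each RefSeq gene (GRCm38.p6). It was present in 1304 of 32851 windows (3.97%) and, among the 8 member genes in that table (9 windows), in those of Asns, Chac1 and Trib3. These are shown because they carry the letters through which ATF4 is known to act, which stand in capitals. In Asns the match lay 23 bases before the start (forward strand), in Chac1 193 bases before it (reverse strand) and in Trib3 at base 15 of the transcript (reverse strand). No other motif was searched, and a match in these letters is no measurement of binding.
Asns, 250 bases before the start, chr6:7693210-7693459, minus strand: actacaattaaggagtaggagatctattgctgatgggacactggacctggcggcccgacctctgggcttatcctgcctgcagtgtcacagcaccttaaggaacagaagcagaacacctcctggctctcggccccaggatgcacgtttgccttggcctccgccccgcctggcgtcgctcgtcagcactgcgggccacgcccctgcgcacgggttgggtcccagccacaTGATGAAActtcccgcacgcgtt
Chac1, 250 bases before the start, chr2:119350992-119351241, plus strand: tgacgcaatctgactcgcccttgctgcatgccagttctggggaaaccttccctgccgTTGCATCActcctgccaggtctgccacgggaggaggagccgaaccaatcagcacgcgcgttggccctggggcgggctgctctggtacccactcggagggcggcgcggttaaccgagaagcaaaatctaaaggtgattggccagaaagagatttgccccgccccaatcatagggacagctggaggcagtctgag
Trib3, 30 bases around the match, chr2:152344028-152344057, minus strand: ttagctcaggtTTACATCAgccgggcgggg

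Levels are given as FPKM, fragments scaled by the length of the transcript and the total of mapped fragments, which may be compared between genes. The printed values of control libraries in the study equal those of deposited columns with other names, 12 columns away, and the libraries are placed here by that order: the 36 Ctrl libraries by equal values, the 36 -Trp libraries by continuing the shift. The diet tests and the oscillation calls were repeated with the columns as named, that is by the sample labels. The comparison of light, the gene lists, the markers and the correlations are given in the first order only. Dbp, a clock output gene, peaked in this order at 8 to 12 h in LD on both diets (Ctrl LD, 16.6 ± 2.34 at 0 h and 36.2 ± 3.12 at 12 h, SD, n = 3). In DD it had no single peak (Ctrl DD, 21.6 ± 1.23 at 4 h, 15.3 ± 6.44 at 12 h and 23.3 ± 4.16 FPKM at 20 h, SD, n = 3). The sum of FPKM over all rows was 403066 to 524705 in the 36 LD libraries and 317417 to 353587 in 35 of the 36 DD libraries, with -Trp DD 4 h replicate 2 at 411944, so that light and this range cannot be told apart. Across all genes, 5 libraries stood apart from their light condition, Ctrl DD 12 h replicate 1 by most, then -Trp LD 20 h replicate 3, -Trp LD 12 h replicate 2, -Trp DD 4 h replicate 2 and Ctrl LD 20 h replicate 2. The SCN peptides Avp (group medians 327 to 483 FPKM) and Vip (14.3 to 21.7 FPKM) were present, and so was Oxt of neighbouring nuclei (526 to 1744 FPKM). Pomc, of the arcuate nucleus, had medians of 4.70 and 6.80 FPKM in LD and 57.8 and 134 FPKM in DD.

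All 9 genes were above 0 in every library. Atf4 was the most abundant, with 39.9 to 103 FPKM over the 72 libraries and a median of 67.5. Asns followed with a median of 44.9 FPKM, then Ddit3 with 25.03, Ddit4 with 18.9, Atf5 with 9.85, Chac1 with 4.99, Sesn2 with 3.82, Eif4ebp1 with 1.48 and Trib3 with 0.279 FPKM. Each of them was above its next neighbour in 67 or more of the 72 libraries, except that Chac1 was above Sesn2 in 57. In Ctrl DD those 2 did not differ beyond their spread (Chac1 3.77 ± 0.538 and Sesn2 3.67 ± 0.454 FPKM, SD, n = 18). Trib3 stayed below the minimum mean of 0.5 FPKM set for testing, so 8 of the 9 genes entered the limma tests, while Trib3 is given by its values and its oscillation calls. Without that minimum its diet difference in LD was 0.07 on the log2 scale (limma adjusted p = 0.605).

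**Figure D1:**
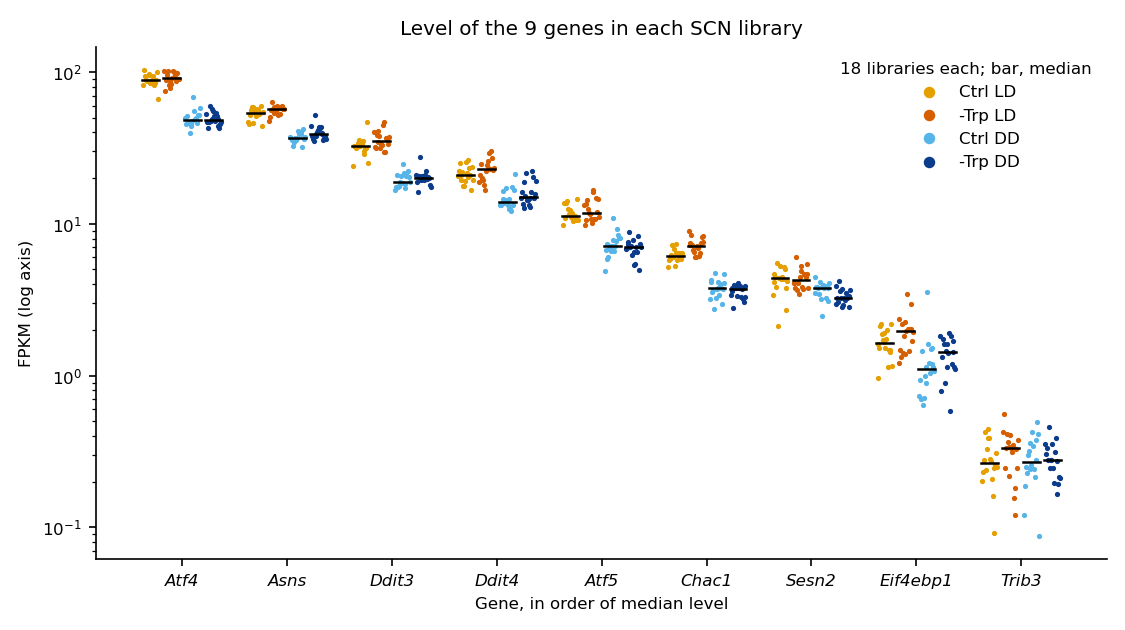
Each point is the FPKM (log axis) of 1 of the 9 genes in 1 SCN library, coloured by group, 18 libraries a group, and bars are medians. The genes span from Atf4, with a median of 67.5 FPKM, to Trib3, with 0.279 FPKM, and within a gene the Ctrl and -Trp points of 1 light condition overlap.

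The genes are annotated as protein-coding in GENCODE release M21 (GRCm38), Atf4 at chr15:80255184-80257541, Asns at chr6:7675169-7693254, Chac1 at chr2:119351229-119354381, Sesn2 at chr4:132492032-132510501 and Ddit4 at chr10:59949669-59951834. Atf5 lies at chr7:44812256-44816658, Trib3 at chr2:152337422-152344032 and Eif4ebp1 at chr8:27260329-27276674. For Ddit3 the annotation holds a second overlapping protein-coding gene of the same symbol (chr10:127290829-127293753) inside the first (chr10:127290774-127296288), and how fragments were divided between them is not given in the sources used here, so the level of Ddit3 is uncertain to that extent.

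In LD, Chac1 was the 1 gene of the set that passed the test for diet. Its levels were 5.20, 6.15 and 7.34 FPKM (lowest, median and highest of 18) in Ctrl LD and 6.04, 7.18 and 8.91 FPKM in -Trp LD. The ranges overlapped, and the mean of -Trp was the higher one at 6 of 6 time points. The difference was 0.22 on the log2 scale (SE 0.0466, adjusted p = 0.0103 by limma with Benjamini-Hochberg adjustment over 14148 genes), a rise of 16.6% with a 95% confidence interval of 9.15 to 24.5%. Over all genes tested, 157 (1.11%) passed in either direction and 80 (0.565%) were higher on -Trp. In bulk tissue, more cells that express a gene and more RNA per cell cannot be told apart.

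The other genes gave smaller or less certain differences in LD. Asns had 44.3, 54.0 and 60.0 FPKM (lowest, median, highest) in Ctrl LD and 47.7, 56.9 and 63.1 FPKM in -Trp LD. Its difference of 0.10 (log2, SE 0.0332) gave an unadjusted p of 0.0063 and an adjusted p of 0.169 by limma. Ddit3 had 23.9, 32.4 and 47.1 FPKM in Ctrl LD and 29.5, 35.3 and 47.0 FPKM in -Trp LD. The difference was 0.17 (log2, SE 0.0646, adjusted p = 0.219), and the mean was the higher one on -Trp at 6 of 6 time points. The highest Ctrl value of Ddit3 belonged to Ctrl LD 20 h replicate 2, a library that stood apart. Without that library the difference of Ddit3 was 0.21 and passed the test (limma, adjusted p = 0.0373), while the number of all genes called went from 157 to 261.

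Eif4ebp1, the translation repressor, had 0.963, 1.63 and 2.20 FPKM in Ctrl LD and 1.22, 1.95 and 3.47 FPKM in -Trp LD (difference 0.19, SE 0.0911, limma adjusted p = 0.381). For Ddit4 the difference was 0.11 (SE 0.054, adjusted p = 0.389), for Atf4 0.07, for Atf5 0.09 and for Sesn2 0.07 on the log2 scale, with adjusted p of 0.618, 0.621 and 0.752 by limma for the last 3. All 8 differences were positive, as were 52.3% over all genes tested, with a median of 0.10 beside 0.0036 over all genes. By limma 4 of the 8 (Chac1, Asns, Ddit3 and Eif4ebp1) had an unadjusted p under 0.05, as did 1844 of all 14148 genes. Trib3 had medians of 0.265 FPKM (Ctrl LD) and 0.334 FPKM (-Trp LD). Of the marker lists, Aqp4 of 5 astrocyte markers and Gpr17 of 3 markers of oligodendrocyte precursors fell on -Trp in LD, by 0.35 and 0.26 on the log2 scale (limma adjusted p = 0.0316 and 0.00445). The lists as a whole did not fall with them. Of the 3 precursor markers 2 had positive differences (median of the list 0.06), as had 2 of the 5 astrocyte markers (median -0.0017). The summed astrocyte markers ranged from 258 to 444 FPKM in Ctrl LD and from 334 to 433 FPKM in -Trp LD, and the precursor markers from 20.0 to 31.3 and from 19.9 to 28.1 FPKM. No marker of these lists had a group median of 0, and their part in the result for Chac1 was not tested.

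**Figure D2:**
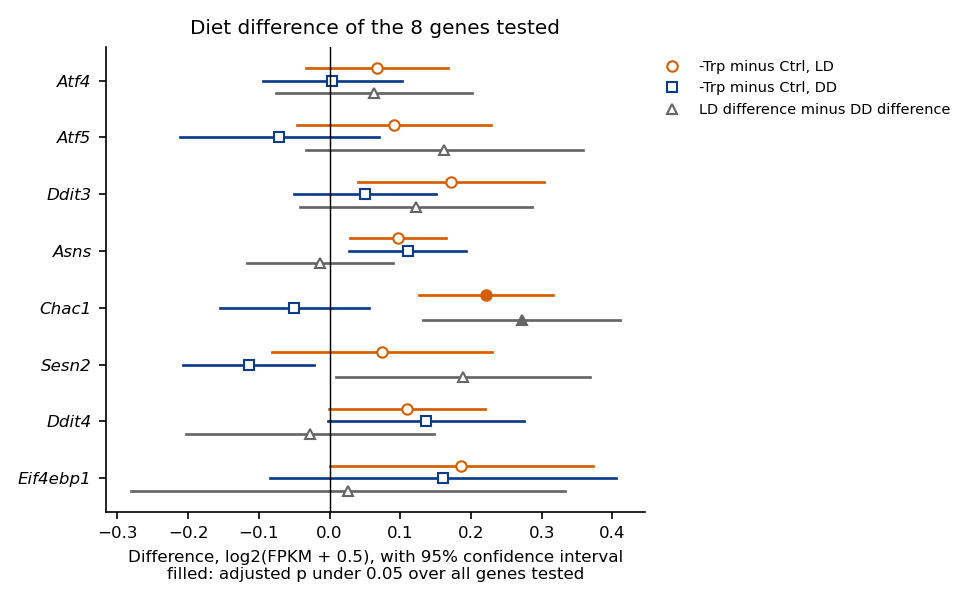
The x axis gives the difference in log2(FPKM + 0.5) with its 95% confidence interval for the 8 genes tested: -Trp minus Ctrl in LD (circles), in DD (squares), and the LD difference minus the DD difference (triangles). Filled symbols passed an adjusted p of 0.05 over all genes. Only the LD difference of Chac1 (0.22) and its difference between LD and DD (0.27) are filled.

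In DD, none of the 8 genes passed the test by limma, while 1946 of 14530 genes (13.4%) did, and 2 of the 8 had an unadjusted p under 0.05, as did 4575 of all genes. Asns had 32.0, 36.8 and 42.1 FPKM (lowest, median, highest) in Ctrl DD and 35.4, 39.2 and 52.4 FPKM in -Trp DD. Its difference of 0.11 (log2, SE 0.0406) gave a limma adjusted p of 0.0642, and 0.0319 in 1 fit of all 72 libraries. In that fit 2231 of 14428 genes passed the test for diet in DD. Sesn2 had 2.47, 3.80 and 4.44 FPKM in Ctrl DD and 2.84, 3.26 and 4.19 FPKM in -Trp DD, a difference of -0.11 (SE 0.0454, limma adjusted p = 0.0835), and its mean was the higher one on -Trp at 0 of 6 time points. These 2 lay near the threshold. Without Ctrl DD 12 h replicate 1, the library farthest from the rest, both passed, Sesn2 at -0.14 and Asns at 0.12 on the log2 scale (limma adjusted p = 0.0256 and 0.0461). Without that library 2418 of 14504 genes passed. Asns also passed without Ctrl DD 0 h replicate 1, Ctrl DD 16 h replicate 2, Ctrl DD 20 h replicate 1 or -Trp DD 4 h replicate 1, and Sesn2 without Ctrl DD 20 h replicate 1 (limma adjusted p from 0.0395 to 0.0485 for these fits). Over all genes, 1808 to 2794 passed in these fits. Markers of other cells fell on -Trp in DD as well, with 2 of 3 for oligodendrocyte precursors (Gpr17 and Cspg4), Aqp4 of astrocytes, Cx3cr1 of microglia and Mag of oligodendrocytes, while Crh of other hypothalamic nuclei rose. Their part in these values was not tested.

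For Chac1 the groups lay together in DD, with 2.75, 3.76 and 4.77 FPKM in Ctrl DD and 2.79, 3.75 and 4.05 FPKM in -Trp DD (difference -0.05, SE 0.0517, limma adjusted p = 0.517, interval -10.2 to 3.89%). Ddit4 gave 0.14 (SE 0.068, adjusted p = 0.164) and Eif4ebp1 0.16 (SE 0.12, adjusted p = 0.362), while Atf4, Ddit3 and Atf5 gave 0.0039, 0.05 and -0.07 on the log2 scale. The sign for Atf4 turned with 12 of the 36 libraries left out. Of the 8 differences 5 were positive, as were 54.0% over all genes tested, and the median of the 8 was 0.03 beside 0.01 over all genes. Trib3 had medians of 0.269 FPKM (Ctrl DD) and 0.277 FPKM (-Trp DD).

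The diet difference of Chac1 was larger in LD than in DD by 0.27 on the log2 scale (SE 0.0698, limma adjusted p = 0.0111), with an interval of 0.13 to 0.41. It was the 1 gene of the 8 that passed this test, which 1110 of 14428 genes (7.69%) passed in either direction and 774 (5.36%) in the same direction. For Sesn2 the corresponding difference was 0.19 (SE 0.0897, limma adjusted p = 0.169), with opposite signs in LD and DD. For Asns, whose differences were 0.10 in LD and 0.11 in DD, the interval of the difference between them ran from -0.12 to 0.09. Ddit4 likewise gave -0.03 with an interval of -0.20 to 0.15, and the intervals of the remaining 4 genes also held 0.

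With the columns as named, these results were of another kind. In LD, all 8 differences were then negative and 7 passed the test (all but Eif4ebp1), among them Atf4 by -0.50, Chac1 by -0.49 and Ddit3 by -0.44 on the log2 scale (limma adjusted p = 8.51e-06, 6.71e-06 and 0.00018). In DD, all 8 differences were positive and 5 passed, with 0.48 for Atf4, 0.49 for Ddit3 and 0.52 for Chac1 (limma adjusted p = 1.50e-06, 3.16e-07 and 5.68e-08). Most genes moved in the same fits, 9482 (65.5%) in LD, 10178 (70.9%) in DD and 11192 (77.6%) in the test between LD and DD. The libraries of the 2 diets then also fell into different ranges of the FPKM sum. The upper range held 12 of 18 libraries named Ctrl LD but 1 of 18 named -Trp LD, and 6 of 18 named Ctrl DD but 18 of 18 named -Trp DD. At 16 and 20 h, where the diets share a range also by name but for 1 library, the named columns compare the libraries placed here at 0 and 4 h of the other light condition. There the differences of Chac1 were -0.08 and 0.02 in the columns named LD and 0.47 and 0.20 in those named DD.

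The difference of Chac1 in LD was uneven over the day. At 0 h the Ctrl libraries had 5.20, 5.78 and 5.91 FPKM and the -Trp libraries 8.91, 7.42 and 7.20 FPKM. At 20 h they had 5.84, 6.38 and 6.27 FPKM on Ctrl and 8.20, 7.61 and 8.26 FPKM on -Trp. At both times all 3 -Trp libraries were above all 3 Ctrl libraries, as for 2.62% of genes tested at 0 h and 4.13% at 20 h. At 8 h the Ctrl values were 6.06, 6.85 and 5.24 FPKM and the -Trp values 6.55, 6.05 and 6.04 FPKM, which overlapped. The contrasts at single times were 0.47 (SE 0.10) at 0 h and 0.37 (SE 0.10) at 20 h on the log2 scale, and neither passed the adjustment over all genes (limma adjusted p = 0.734 and 0.297). At 20 h the -Trp value of 8.26 FPKM came from a library that stood apart, and without the libraries that stood apart the contrast was 0.36 (SE 0.123). The F-test of diet by time in LD gave an unadjusted p of 0.0337 for Chac1 (limma adjusted p = 0.914). In that test no gene passed (0%), and 516 had an unadjusted p under 0.05.

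**Figure D3:**
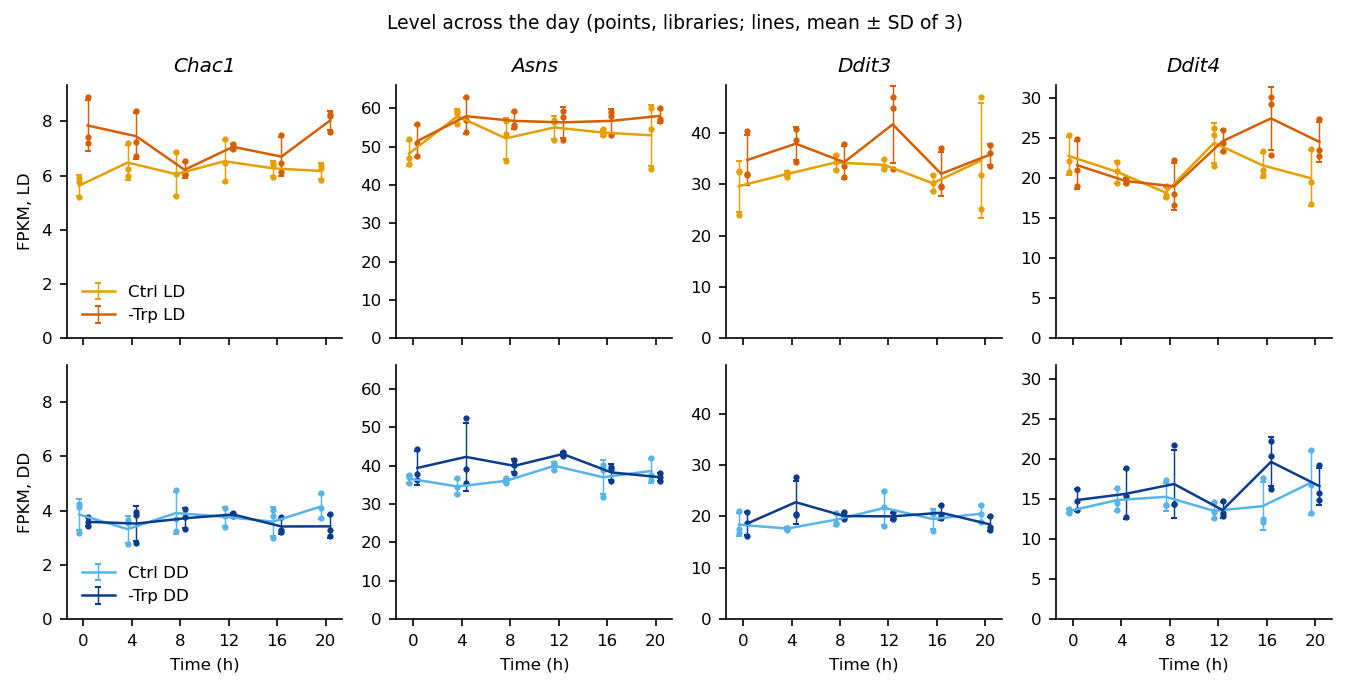
FPKM of Chac1, Asns, Ddit3 and Ddit4 against time (h) in LD (upper row) and DD (lower row), with a point per library and the mean ± SD of 3 joined by lines. In LD the -Trp line of Chac1 is highest at 20 h (8.02 FPKM) and meets the Ctrl line at 8 h, and the -Trp line of Ddit4 is highest at 16 h (27.4 FPKM).

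In DD, diet by time gave 6 of 14530 genes (0.0413%) and no member. Atf5 had the lowest unadjusted p of the 8, 0.0124 (limma adjusted p = 0.525). At 12 h in DD, Atf5 had 10.9, 7.86 and 6.62 FPKM on Ctrl and 5.36, 6.54 and 5.45 FPKM on -Trp. This was the 1 contrast at a single time that passed for any of the genes (log2 difference -0.47, SE 0.142, limma adjusted p = 0.0428), and 651 genes (4.48%) passed with the same sign at that time. The value of 10.9 FPKM belonged to Ctrl DD 12 h replicate 1, and without the libraries that stood apart the difference was -0.23 (SE 0.122, adjusted p = 0.231). At 0 h the sign for Atf5 was the opposite, 0.28 (SE 0.142), which did not pass.

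Oscillation was called by JTK_CYCLE at a p-value under 0.05 for a period of 24 h, unadjusted over genes, the threshold of the study. In Ctrl LD none of the 9 genes was called, against 1769 of 24883 rows (7.11%), with the lowest p-values for Eif4ebp1 (0.0568) and Trib3 (0.0724). Without Ctrl LD 20 h replicate 2, a library that stood apart, Ddit3, Trib3 and Eif4ebp1 were called in this group, beside 2722 of all rows. Eif4ebp1 was also called without Ctrl LD 0 h replicate 1, 12 h replicate 2 or 12 h replicate 3, and Trib3 without 0 h replicate 1 or 4 h replicate 2. In these sets 1350 to 1672 of all rows were called. In -Trp LD 3 genes were called (7.42% of rows), Ddit4 (p = 0.00576), Chac1 (p = 0.0147) and Trib3 (p = 0.0441), all by JTK_CYCLE, whose null distribution is exact. Ddit4 went from 19.0 ± 2.89 FPKM at 8 h to 27.4 ± 3.94 FPKM at 16 h (SD, n = 3), and Chac1 from 6.21 ± 0.293 FPKM at 8 h to 8.02 ± 0.362 FPKM at 20 h. Trib3 went from 0.153 ± 0.0308 FPKM at 16 h to 0.409 ± 0.158 FPKM at 0 h. On Ctrl LD, Ddit4 also had its lowest mean at 8 h (18.2 ± 0.727 FPKM), and its highest at 12 h (24.4 ± 2.54 FPKM).

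Ddit4 was called in each of the 18 sets that left out 1 library of -Trp LD, and Chac1 in 16, all but those without replicate 2 or replicate 3 of 8 h. Trib3 was called in 6 of the 18. A cosine fit by limma in -Trp LD gave Ddit4 an amplitude of 0.26 on the log2 scale with a peak at 16.8 h (adjusted p = 0.0139, passed by 385 genes or 2.72%), and Chac1 an amplitude of 0.15 with a peak at 22.1 h (adjusted p = 0.191). After adjustment of the JTK_CYCLE p-values over all rows no member was called in any group, and the lowest adjusted value was 0.228 for Ddit4. A call on 1 diet does not show a difference between the diets. The test of that difference was passed by no gene in LD (0%) and by 5 in DD (0.0344%), none of them a member. Its unadjusted p was 0.0142 for Chac1, 0.0355 for Ddit4 and 0.0428 for Eif4ebp1 in LD, none of which passed the adjustment, and 0.00617 for Atf5 in DD (limma adjusted p = 0.541).

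In DD, Eif4ebp1 was called in Ctrl (exact p = 0.0147 by JTK_CYCLE, beside 4.92% of rows), from 0.791 ± 0.13 FPKM at 0 h to 2.11 ± 1.24 FPKM at 12 h. The 12 h values were 3.53, 1.61 and 1.21 FPKM, the highest from the library farthest from the rest, and the gene was also called without it. Atf4 was called in -Trp DD (exact p = 0.0196 by JTK_CYCLE, beside 1.42% of rows), from 45.1 ± 2.01 FPKM at 20 h to 53.6 ± 4.25 FPKM at 8 h, a ratio of 1.19. It was not called without -Trp DD 8 h replicate 1, without 8 h replicate 3 or without 20 h replicate 1.

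The rest of the pathway was read from lists of known genes. Of 34 further ATF4 targets, 30 passed the filter in LD, and 1 rose on -Trp and none fell, beside 1.11% of all genes called. The 1 was Aars, alanyl-tRNA synthetase, with 55.3 ± 5.21 FPKM on Ctrl and 59.7 ± 5.52 FPKM on -Trp (SD, n = 18, log2 difference 0.13, limma adjusted p = 0.0428). Their median difference was 0.02. In DD, 31 were tested, none rose and 3 fell, all of them transporters. Slc7a5, the light chain of the transporter of large neutral amino acids that also carries tryptophan, went from 11.1 ± 1.53 to 9.18 ± 1.19 FPKM (log2 difference -0.26, limma adjusted p = 0.00465). Slc3a2, its heavy chain, fell by 0.15 and the glycine transporter Slc6a9 fell by 0.28 on the log2 scale (limma adjusted p = 0.010 and 0.00556), while 1049 of all genes (7.22%) rose and 897 (6.17%) fell in DD.

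None of the 14 sensors and regulators of the pathway, the eIF2 kinases among them, passed in LD or DD. The lowest p in LD was that of Eif2ak2, the kinase PKR (log2 difference -0.13, limma adjusted p = 0.219). Of 15 genes of the ATF6 and XBP1 branches of the ER stress response, none passed in LD. In DD 3 rose, Xbp1 by 0.16, Herpud1 by 0.13 and the chaperone Hspa5 by 0.19 on the log2 scale (limma adjusted p = 0.0208, 0.0396 and 0.0417), and Sel1l fell by 0.13. All these counts stand beside 1.11% of all genes passing in LD and 13.4% in DD. Of 15 relatives of the members and parts of the mTORC1 pathway, Trib1 rose in LD (log2 difference 0.19, limma adjusted p = 0.0419). In DD Sesn1 rose by 0.20 and Trib2, Mtor and Tsc2 fell, the last named after its value was seen. None of the 11 immediate early genes tested passed in either condition. Of 8 clock genes, Per1 rose in LD (log2 difference 0.21, limma adjusted p = 0.0421) and none passed in DD.

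Ddit4 is also a target of the glucocorticoid receptor, and glucocorticoid-responsive genes were therefore read beside the set. Of 12 such genes, 7 rose on -Trp in LD and 7 in DD, beside 0.565% and 7.22% of all genes, with median differences of 0.28 and 0.30 on the log2 scale. The differences were positive for 11 of the 12 in LD and 9 in DD. Fkbp5, Zbtb16 and Errfi1, named after their values were seen, passed in neither condition. They gave 0.25, 0.24 and -0.0067 in LD and -0.0026, -0.0057 and 0.05 in DD. Sult1a1, a sulfotransferase, went from 5.75 ± 1.32 to 11.9 ± 4.04 FPKM in LD and from 4.54 ± 2.14 to 8.30 ± 3.41 FPKM in DD (SD, n = 18). The metallothionein Mt2 rose by 0.37 in LD and 0.34 in DD, where the corresponding differences of Ddit4 were 0.11 and 0.14 and did not pass. This list was set with earlier results of these libraries known, and its count is no independent evidence.

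**Figure D4:**
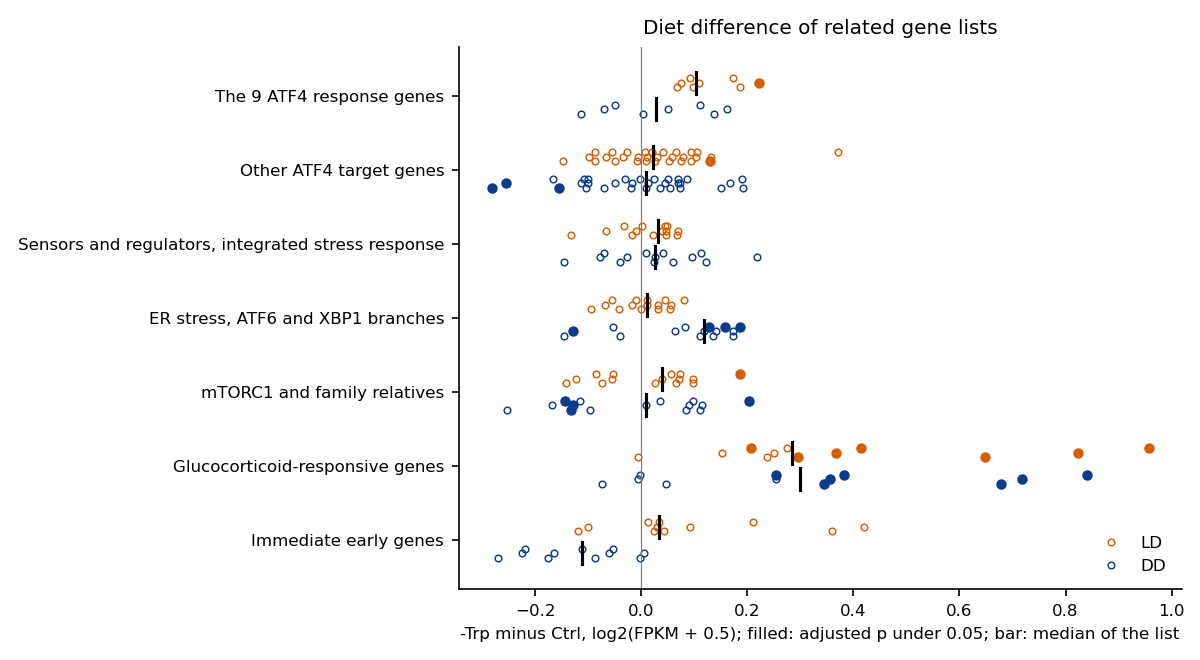
Each point is the -Trp minus Ctrl difference in log2(FPKM + 0.5) of 1 gene in LD or DD, by gene list, filled where the adjusted p was under 0.05, and bars are medians. The 9 ATF4 response genes (8 tested) lie between -0.11 and 0.22, while 7 of 12 glucocorticoid-responsive genes are filled in each light condition.

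Levels of the set were higher in LD than in DD on both diets. On Ctrl, 7 of the 8 genes passed (all but Sesn2), each higher in LD, and on -Trp all 8 did. Atf4 had 88.7 ± 8.12 FPKM in Ctrl LD and 49.7 ± 6.26 FPKM in Ctrl DD, then 91.6 ± 8.26 and 49.5 ± 4.80 FPKM on -Trp (SD, n = 18), with log2 differences of 0.73 and 0.79. Chac1 gave 0.56 on Ctrl and 0.83 on -Trp, and Sesn2 0.07 and 0.26. Differences between LD and DD were general, but their direction was not. On Ctrl 78.8% of genes passed and 41% were higher in LD, and on -Trp 79.6% passed and 41.7% were higher. The median log2 difference of the 8 genes was 0.49 on Ctrl and 0.56 on -Trp, beside 0.021 and 0.024 over all genes tested. Light went with the range of the FPKM sum and with markers of neighbouring nuclei, Pomc being higher in DD and Oxt in LD, and these cannot be told apart. Trib3 had group medians of 0.265 to 0.334 FPKM and no such separation.

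The correlations between members were uneven among libraries. After subtraction of the mean of each group and time point, Atf4 and Ddit3 had the highest correlation of the 28 pairs (Pearson r = 0.71 over 72 libraries), then Atf5 and Eif4ebp1 (0.56) and Ddit3 and Eif4ebp1 (0.55). Asns, the amino acid biosynthetic target, had r = 0.17 with Atf4 and -0.43 with Ddit4, and Sesn2 had -0.41 with Ddit3. The median over the pairs was 0.09, and 19 of the 28 were positive. Over the 24 means of group and time point, less the mean of each light condition, 23 of 28 were positive, with a median of 0.22. There Asns had r = 0.47 with Atf4 and 0.02 with Ddit4. Pairs of other genes were not computed for comparison. These are descriptions over genes of the same libraries, whose scaling and tissue composition they share.

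The genes of most similar pattern were taken over the 24 means of group and time point, after subtraction of the mean of each light condition. For Chac1 they were Cpne5, Gnb5 and Dtnb (Pearson r = 0.80, 0.79 and 0.78). For Asns they were Atp6v1d, Gm12070 and Gars (0.85, 0.84 and 0.83), of which Gars, glycyl-tRNA synthetase, is among the further ATF4 targets, as is Gpt2, an alanine aminotransferase that followed Ddit4 (0.82) after Fam43a and Mxd4 (0.86 and 0.85). Ddit3 was followed by Arpc1a, Gtf2f1 and Ccdc106 (0.91, 0.90 and 0.86), Atf4 by Rilpl1 (0.82), Atf5 by Bri3 (0.84), Sesn2 by Gnaz (0.85) and Eif4ebp1 by Tmed9 (0.86). No member was among the 3 nearest genes of another member. With 3 places filled from all genes of at least 1 FPKM, that absence was likely in any case, so nothing is drawn from it.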

How the data were processed

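Per the labels and the study's methods, the authors prepared stranded mRNA libraries from 200 ng of SCN RNA, sequenced them paired-end for 100 cycles, and used Trimmomatic, TopHat (mm10) and Cufflinks, versions not given in the sources used here. The deposited values are FPKM per gene and library, and scaling between libraries is not stated. FPKM holds no read counts, so depth and counting error are unknown, and the spread between libraries gives the precision. Each library had 17931 to 18778 rows above 0.

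Levels were tested with limma 3.58.1 (R 4.3.3) on log2(FPKM + 0.5). Libraries were first scaled together by the median of ratios (factors 0.902 to 1.07), and genes whose mean was below 0.5 FPKM were left out, with time point as a factor and Benjamini-Hochberg adjustment at 0.05. A log2 difference with a pseudocount understates changes of low genes. JTK_CYCLE was rewritten in Python 3.11.15 on FPKM as deposited. It gave the printed p-values and lags in 100% of 1999 (Ctrl LD) and 135 (Ctrl DD) rows. The rows it called here at an unadjusted p under 0.05 differ from these in number, 1769 in Ctrl LD and 1225 in Ctrl DD. Why they differ was not tested. The diet test, in the design of LD, and JTK_CYCLE were also tried on simulated data.

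The order of the columns follows values the study printed for control libraries. All 36 were equal to 1 deposited column each in 100% of 124 to 1939 genes (relative tolerance 0.0001, FPKM of at least 0.05), and the column of the same name in at most 0.104%. The -Trp libraries were placed by continuing the same shift, which no printed value used here checks.

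The 9 members and the lists were chosen with earlier results of these data known, and the lists were written from general knowledge. From each list the genes past the threshold were named, at most the 4 with the smallest p, or the 1 smallest where none passed. For each member tested, the 3 genes of most similar pattern were taken among genes of at least 1 FPKM. Libraries stood apart where the SD over genes of their log2 difference from the median library exceeded 1.5 times the median, a rule set after seeing the data. Same-numbered replicates at 1 time point correlated over 0.1 in 4 of 18 pairs (LD) and 12 of 18 (DD), and were not treated as paired. Alternatives were other pseudocounts, scaling, filters, the replicate block, 1 fit for all libraries, the columns as named, and leaving out each library. Positions are from GENCODE M21 and promoters from RefSeq. Eif4ebp1 was not in the promoter table. The result of 1 marker list as a whole is not reported here.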

Additional observations from a re-analysis of the deposited data

Results flagged for a closer look

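The diet difference of Chac1 differed between the light conditions. It was larger in LD than in DD by 0.27 on the log2 scale (SE 0.0698, limma adjusted p = 0.0111 over 14428 genes), with a difference of 0.22 in LD and -0.05 in DD. Over the 72 fits that left out 1 library it stayed between 0.25 and 0.29, with adjusted p from 0.0058 to 0.0187, and with the columns as named it was -1.01.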

How the results depend on the processing

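Pseudocounts of 0.1 and 1, no filter and the stricter filter of 1 FPKM moved no diet difference of a member across 0 or across the threshold, and unscaled FPKM moved 1 across 0, Atf4 in DD (-0.0040). With the replicate block, 0 members passed in LD (Chac1 0.22, limma adjusted p = 0.064, and 78 genes in all). In DD 2 passed with it, Asns (0.11) and Sesn2 (-0.11), at limma adjusted p = 0.0206 and 0.0191, and 2839 genes in all. With the block 1 member (Trib3) oscillated in Ctrl LD, beside 2104 of all rows, while the test between LD and DD kept Chac1 (limma adjusted p = 0.0138). The fit of all 72 libraries called 1 member in DD, Asns, and 2231 genes in all. Without the libraries that stood apart, 1 passed in DD (Sesn2, -0.15, and 2589 genes in all), 3 oscillated in Ctrl LD (beside 2722 of all rows), and Eif4ebp1 gave -0.061 between LD and DD.

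With the columns as named, the members passing numbered 7 (diet LD), 5 (diet DD), 7 (diet by light), 6 and 4 (diet by time, LD and DD), and those oscillating on Ctrl 7 (LD) and 6 (DD), on -Trp 0 (LD) and 2 (DD). Over all genes, diet by time was then passed by 7392 of 14480 in LD and 6828 of 14362 in DD. Of the 24883 rows, 9416 oscillated in Ctrl LD, 6874 in Ctrl DD, 617 in -Trp LD and 1661 in -Trp DD. Differences that changed sign were, in LD, Atf4 -0.50, Atf5 -0.31, Ddit3 -0.44, Asns -0.29, Chac1 -0.49, Sesn2 -0.18, Ddit4 -0.37 and Eif4ebp1 -0.14, in DD, Atf5 0.45, Chac1 0.52 and Sesn2 0.13, and, between LD and DD, Atf4 -0.98, Atf5 -0.75, Ddit3 -0.93, Chac1 -1.01, Sesn2 -0.31 and Eif4ebp1 -0.21. The cause was not tested. With adjusted JTK_CYCLE p-values 0 members oscillated in any group, and with the limma cosine fit at an unadjusted p under 0.05, 2 did in Ctrl DD (Atf5 and Eif4ebp1, adjusted p = 0.549 for both).

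Leaving out each library in turn gave 1 to 2 members passing in LD, 0 to 2 in DD and 1 between LD and DD, and oscillating on Ctrl 0 to 3 (LD) and 1 to 2 (DD), on -Trp 1 to 3 (LD) and 0 to 2 (DD). All genes passing ranged from 106 to 261 in LD (261 without Ctrl LD 20 h replicate 2) and from 1173 to 2794 in DD (1263, 1173 and 1281 without -Trp DD 0 h replicate 1, 12 h replicate 3 and 20 h replicate 1). Chac1 in LD stayed between 0.20 and 0.24. Signs turned for values near 0 only, for Atf4 in DD (-0.0119 to 0.0326), and between LD and DD for Asns (-0.0285 to 0.00789) and Eif4ebp1 (-0.0529 to 0.0631).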
